A study of Mus musculus with 6 samples.

Results

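A set of 10 genes that mark the oligodendrocyte lineage in the brain were followed here in all 6 brain libraries: Pdgfra and Cspg4 of the precursor cells, Gpr17, Bmp4, Neu4 and Enpp6 of committed precursors and newly formed oligodendrocytes, the transcription factors Olig1, Olig2 and Sox10, and Bcas1 of early myelinating cells. They were found by gene symbol among the 38087 genes of the deposited table, where each of the 10 had 1 row. The libraries came from the cerebrum of 3 wild-type (WT) mice and 3 Sgo1-/+ mice, on a C57BL6 background, untreated and 24 months old. The cerebrum included cortex and hippocampus, with olfactory bulb, cerebellum and medulla dissected away. Sgo1-/+ mice carry a single working copy of Shugoshin-1, a protector of the cohesin that holds sister chromatids together, in every cell of the body. WT replicate 1 and Sgo1-/+ replicate 2 were male and the other 4 mice were female. All WT libraries were read in run 258 and all Sgo1-/+ libraries in run 259, so genotype and run cannot be told apart.

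Oligodendrocytes make the myelin sheaths of the brain, and in the adult they arise from precursor cells that remain scattered through grey and white matter. A precursor senses platelet-derived growth factor through PDGFRA. When it commits to differentiation it loses that receptor, passes through a short stage marked by GPR17, and then begins to express myelin genes, while OLIG1, OLIG2 and SOX10 are kept from the precursor to the mature cell. Genes of the short intermediate stages are therefore used as a sign of new oligodendrocytes, which become rare in old animals.

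Each library held 11123917 to 12505561 estimated counts in total. Values of 3 mice are given below in the order of replicates 1, 2 and 3. All 10 genes passed the filter on low counts. Their lowest estimated count in any library was 8.52, of Bmp4, above the 3 counts that a gene listed at 0 could still hold. The targeted gene Sgo1 was too low to check the genotype, with 0, 7 and 0 estimated counts in the WT mice against 4, 2 and 0 in the Sgo1-/+ mice. WT replicate 1 stood apart: across genes its log2 values had a mean correlation of 0.932 with the other libraries, against 0.964 to 0.968 for the other 5, a description over genes that are not independent. In that library 11 of 11 brain stem markers and 9 of 10 cerebellar markers were highest, although cerebellum and medulla had been dissected away. There 10 of 10 striatal markers and 8 of 10 markers of cortical neurons were lowest. The summed normalized count of the brain stem markers was 4099.8 in WT replicate 1 and 21.8 to 75.6 elsewhere, and that of the striatal markers was 3984 against 13075 to 29621. Values that move strongly with this library are also given without it. In tissue RNA, fewer cells of a type and less RNA per cell cannot be told apart.

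To set the genes beside each other, levels were expressed as reads per kilobase of merged exon, scaled to the library (RPKM), computed from the estimated counts. On this per-length scale Olig1 (median of the 6 libraries 53.9 RPKM, range 37.1 to 67.0) and Bcas1 (median 50.6, range 31.8 to 97.9) were the most abundant, and their ranges overlapped, with Olig1 above Bcas1 in 3 of 6 libraries. Sox10 followed at a median of 16.9 RPKM (range 10.7 to 26.6). Olig2 had a median of 9.60 RPKM (range 7.31 to 13.4) and was below Sox10 in 6 of 6 libraries, although the ranges of both genes overlapped. Gpr17 (median 5.88 RPKM) and Pdgfra (median 5.84 RPKM) could not be ordered, since Gpr17 was the higher in 4 of 6 libraries. Neu4 (1.80), Cspg4 (1.55), Bmp4 (1.11) and Enpp6 (1.05 RPKM) had the lowest medians, and each neighbour in that order overlapped with the next. The steps without overlap were those from Bcas1 to Sox10, from Olig2 to Gpr17 and from Pdgfra to Neu4, and at each the higher gene led in 6 of 6 libraries.

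**Figure D1:**
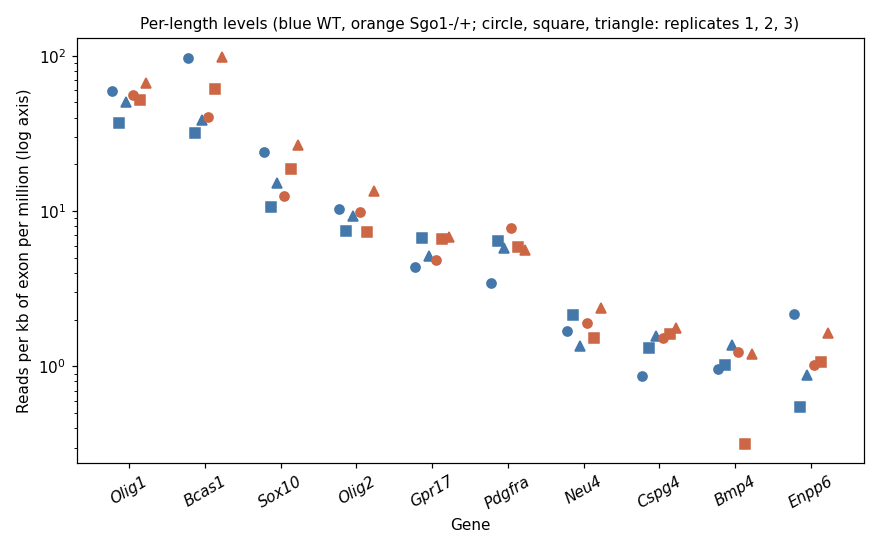
Per-length levels of the 10 genes in each library, in RPKM on a log axis. Blue points are WT, orange points Sgo1-/+, and circles, squares and triangles are replicates 1, 2 and 3; Olig1 and Bcas1 lie between 31.8 and 97.9, and Neu4, Cspg4, Bmp4 and Enpp6 at or below 2.39.

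The comparison of Sgo1-/+ with WT asked whether losing a copy of Sgo1 changes brain gene expression at old age. No difference between the genotypes was detected for any of the 10 genes. With edgeR's quasi-likelihood test and Benjamini-Hochberg adjustment over the 16337 genes tested, 0 of 10 had an adjusted p-value under 0.05, and 0 of 10 had an unadjusted p-value under 0.05. Over all genes tested, 0 (0.0%) passed the adjusted threshold and 333 (2.04%) the unadjusted one (0.808% higher and 1.23% lower in Sgo1-/+), while DESeq2's Wald test gave 3 genes past its adjusted threshold, edgeR's likelihood ratio test 2 and limma 0, none of them among the 10. The lowest unadjusted p-value of the 10 was 0.133 in this edgeR test, for Cspg4, and the adjusted p-value was 0.9999 for each. The median log2 fold change of the 10 genes was 0.19, beside 0.00 over all genes tested, and 9 of 10 were higher in Sgo1-/+. The sign of that median rested on 1 library: 7 of the 10 genes were highest in Sgo1-/+ replicate 3, and without it the median was −0.044, with 4 of 10 higher. In no gene did the 3 WT values lie apart from the 3 Sgo1-/+ values, beside 6.85% of all genes tested for which they did (3.28% with the Sgo1-/+ values higher).

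**Figure D2:**
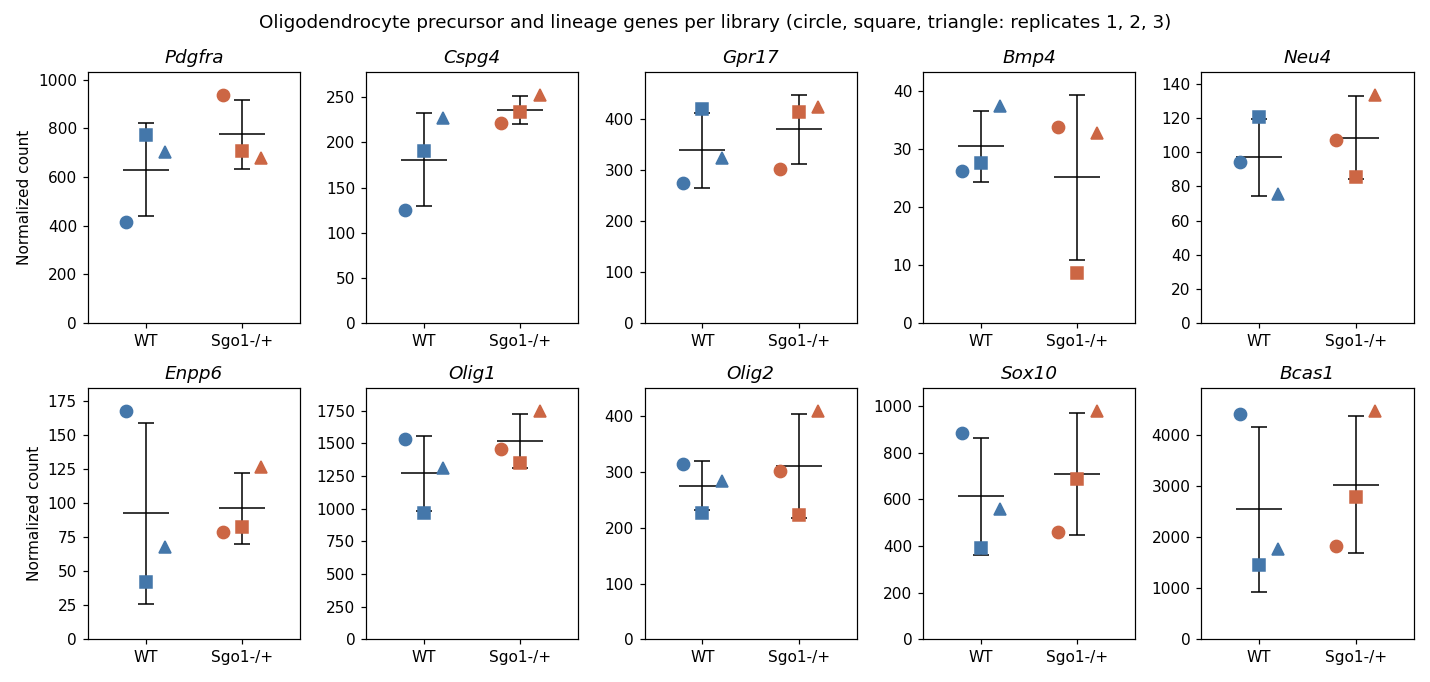
Normalized counts of the 10 genes in each library; circles, squares and triangles are replicates 1, 2 and 3, and bars show the mean and SD of 3 mice. The WT and Sgo1-/+ points overlap in every panel, and WT replicate 1 is lowest of the 6 for Pdgfra, Cspg4 and Gpr17 and highest for Enpp6.

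Pdgfra encodes the receptor through which precursors respond to PDGF-AA, and is also expressed by fibroblasts of the meninges. It lies at chr5:75152291-75198204 (mm10, plus strand). The WT mice had 415, 773 and 704 normalized counts, against 939, 709 and 680.0 in the Sgo1-/+ mice. WT replicate 1 was well below the rest and Sgo1-/+ replicate 1 above it, while the other 4 libraries spanned 680.0 to 773. The means were 631 ± 190 in WT and 776 ± 142 in Sgo1-/+ (SD, n = 3 each), a log2 fold change of 0.30 with a 95% interval from −0.29 to 0.89 (exact two-sided permutation test, p = 0.5, where 0.1 is the smallest p that the 20 groupings allow). It fell to 0.07 once WT replicate 1 was left out.

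Cspg4 encodes the NG2 proteoglycan of the precursor surface, which pericytes carry as well, and lies at chr9:56865104-56899870 (mm10, plus strand). For this gene the WT mice had 125, 191 and 227 normalized counts, against 221, 234 and 253 in the Sgo1-/+ mice. As for Pdgfra, WT replicate 1 was the lowest library, and a narrow overlap remained, since WT replicate 3 exceeded Sgo1-/+ replicate 1. The means were 181 ± 51.3 in WT and 236 ± 16.0 in Sgo1-/+ (SD, n = 3 each). The log2 fold change was 0.38 with a 95% interval from −0.15 to 0.92 (exact two-sided permutation test, p = 0.2). It was 0.18 without WT replicate 1. Without WT replicate 3 it was 0.58, with an unadjusted p of 0.0413 in edgeR's quasi-likelihood test, and an adjusted p of 0.764, in a fit where 6.21% of genes had an unadjusted p under 0.05 (3.15% higher and 3.06% lower). The summed normalized count of 11 mural cell markers, which stand for the pericytes, was between 2303 and 2696 in WT and between 2107 and 2692 in Sgo1-/+, so it did not separate the genotypes.

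The promoters of Pdgfra and Cspg4 are shown beside that of Enpp6, since the first pair was lowest in WT replicate 1 and Enpp6 highest there. Each window runs from 250 bases before to 50 bases after the RefSeq start of the gene (GRCm38.p6, the assembly of mm10), and capitals mark matches on either strand to the E-box letters CAGCTG and CAGATG, bound by basic helix-loop-helix factors such as OLIG2, the SOX letters ACAAAG and ACAATG, the GC box GGGCGG and the TATA box TATAAA. The windows are chr5:75152001-75152300 (plus strand) for Pdgfra, chr9:56864854-56865153 (plus strand) for Cspg4 and chr8:46986637-46986936 (plus strand) for Enpp6.
Pdgfra: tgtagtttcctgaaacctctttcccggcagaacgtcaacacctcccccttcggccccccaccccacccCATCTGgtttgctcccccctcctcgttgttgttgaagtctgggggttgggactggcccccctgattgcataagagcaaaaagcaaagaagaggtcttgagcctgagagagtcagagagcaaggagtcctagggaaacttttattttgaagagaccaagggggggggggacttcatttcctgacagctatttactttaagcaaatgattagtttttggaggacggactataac
Cspg4: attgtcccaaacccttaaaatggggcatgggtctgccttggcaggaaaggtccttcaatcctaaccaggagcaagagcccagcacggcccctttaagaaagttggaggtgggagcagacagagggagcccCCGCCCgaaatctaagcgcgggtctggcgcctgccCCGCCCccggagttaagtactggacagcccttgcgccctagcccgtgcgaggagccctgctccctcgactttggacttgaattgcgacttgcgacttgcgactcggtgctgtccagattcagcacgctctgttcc
Enpp6: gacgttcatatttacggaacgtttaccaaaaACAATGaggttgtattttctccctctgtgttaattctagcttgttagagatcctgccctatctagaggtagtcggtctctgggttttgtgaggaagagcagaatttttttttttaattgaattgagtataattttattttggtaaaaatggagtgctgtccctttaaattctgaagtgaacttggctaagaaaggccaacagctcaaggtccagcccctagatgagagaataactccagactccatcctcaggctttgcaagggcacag
The Pdgfra window held 1 match to CAGATG, read as CATCTG on the plus strand, which 17.2% of the 32851 promoter windows hold. The Cspg4 window held 2 matches to GGGCGG, read as CCGCCC, which 35.7% of the windows hold, and 17 CpG dinucleotides against a median of 7. The Enpp6 window held 1 match to ACAATG, which 12.6% of the windows hold, and its GC content was 40.3% against 51% for Pdgfra and 60% for Cspg4. CAGCTG (16.3% of windows), ACAAAG (18.7%) and TATAAA (13.6%) were in none of these 3 windows. RefSeq windows were at hand for 6 of the 10 genes, and not for Gpr17, which was also lowest in WT replicate 1. A link between these letters and the levels was not tested.

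Gpr17 encodes a receptor that marks precursors on their way to differentiation and is switched off as they mature. It lies on chromosome 18 from 31942997 to 31949636 (mm10, minus strand). The WT mice had 274, 419 and 323 normalized counts, against 302, 414 and 424 in the Sgo1-/+ mice. Each genotype had low and high libraries, and of the 10 genes Gpr17 had the smallest span, 1.55-fold from the lowest library to the highest. The means were 339 ± 74.0 and 380 ± 67.6 (SD, n = 3 each). The log2 fold change was 0.16 with a 95% interval from −0.32 to 0.65 (exact two-sided permutation test, p = 0.6). Exons of Lims2 on the other strand cover 3.62% of the exon bases of Gpr17, and reads there could have been counted for either gene.

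Bmp4 encodes a bone morphogenetic protein that committed precursors secrete, and that blood vessels and meninges also make. It lies at chr14:46383520-46390669 (mm10, minus strand). With estimated counts of 26, 29 and 36.8 in WT and 34, 8.52 and 32 in Sgo1-/+, it had the fewest reads of the 10 genes. After normalization these were 26.2, 27.6 and 37.4 in the WT mice, against 33.8, 8.63 and 32.7 in the Sgo1-/+ mice. Sgo1-/+ replicate 2 was thus the only library below 26.2, and the other 5 spanned 26.2 to 37.4. The log2 fold change was −0.27 with a 95% interval from −1.44 to 0.90 (exact two-sided permutation test, p = 0.8), and 0.12 without Sgo1-/+ replicate 2. Markers of meningeal fibroblasts were low in the same library: 11 of 11 were lowest there, and their summed normalized count was 686 in Sgo1-/+ replicate 2, 2238 and 2272 in the other Sgo1-/+ libraries and 1987 to 2724 in WT, with no marker at 0. On a log2 scale relative to the median library, the median of these markers was −1.28 in Sgo1-/+ replicate 2. It was also low, at −0.59, in Sgo1-/+ replicate 3, where Igf2 alone held 1501 of the summed count. The part of these markers in the Bmp4 value was not tested.

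Neu4 encodes a sialidase of the differentiating lineage and lies at chr1:94020493-94028326 (mm10, plus strand). For this gene the WT mice had 94.5, 121 and 75.6 normalized counts, against 107, 85.3 and 134 in the Sgo1-/+ mice. High and low libraries were found in each genotype. The log2 fold change was 0.16 with a 95% interval from −0.45 to 0.77 (exact two-sided permutation test, p = 0.6).

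Enpp6 encodes a choline phosphodiesterase that is high in newly formed oligodendrocytes, and lies at chr8:46986925-47094895 (mm10, plus strand). The WT mice had 168, 42.3 and 67.9 normalized counts, against 79.3, 82.9 and 127 in the Sgo1-/+ mice. WT held both the highest and the lowest library, 3.98-fold apart, with the Sgo1-/+ libraries between them. The means were 92.7 ± 66.5 and 96.3 ± 26.4 (SD, n = 3 each), and the log2 fold change was 0.06 with a 95% interval from −1.14 to 1.26 (exact two-sided permutation test, p = 1).

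Olig1 and Olig2 are neighbours on chromosome 16 and encode basic helix-loop-helix factors of the whole lineage; OLIG2 specifies it and OLIG1 supports maturation. Olig1 lies at chr16:91269769-91271939 and Olig2 at chr16:91225550-91228677 (mm10, plus strand). Olig1 had 1536, 967 and 1309 normalized counts in the WT mice, against 1458, 1354 and 1749 in the Sgo1-/+ mice. Olig2 had 314, 228 and 285 in WT and 301, 223 and 410 in Sgo1-/+. Both were highest in Sgo1-/+ replicate 3; Olig1 was lowest in WT replicate 2, and Olig2 was low there and in Sgo1-/+ replicate 2. On the per-length scale Olig1 was 4.98 to 7.10 times Olig2 within a library, the narrowest span (1.43-fold) of the 10 ratios computed, and the ratio was highest in Sgo1-/+ replicate 2. The log2 fold changes were 0.26 for Olig1 (95% interval −0.19 to 0.71) and 0.18 for Olig2 (−0.40 to 0.75), with p = 0.4 and p = 0.7 in exact two-sided permutation tests.

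Sox10, the factor that acts with the OLIG proteins and later drives myelin genes, lies at chr15:79154913-79164490 (mm10, minus strand). In the WT mice it had 885, 394 and 559 normalized counts, against 459, 686 and 979 in the Sgo1-/+ mice. WT replicate 1 and Sgo1-/+ replicate 3 stood above the other 4 libraries, so that each genotype spanned about the same range. The means were 613 ± 250 and 708 ± 261 (SD, n = 3 each), with a log2 fold change of 0.21 and a 95% interval from −0.65 to 1.07 (exact two-sided permutation test, p = 0.7).

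Bcas1 marks early myelinating oligodendrocytes and stays on in mature ones. It lies at chr2:170346991-170427845 (mm10, minus strand). The WT mice had 4398, 1448 and 1770 normalized counts, against 1830.0, 2781 and 4462 in the Sgo1-/+ mice. The same 2 libraries as for Sox10 were the highest, and they came from different genotypes. Its coefficient of variation over the 6 libraries, 48.6%, was the largest of the 10 genes, beside 47.9% for Enpp6, 36.9% for Bmp4, 35.5% for Sox10 and 18.7% to 24.1% for the other 6. The means were 2539 ± 1619 in WT and 3024 ± 1333 in Sgo1-/+ (SD, n = 3 each). The log2 fold change was 0.25 with a 95% interval from −0.91 to 1.41 (exact two-sided permutation test, p = 0.5). The antisense gene Bcas1os1 overlaps 11.7% of the exon bases of Bcas1, but held at most 7.08 estimated counts in any library.

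**Figure D3:**
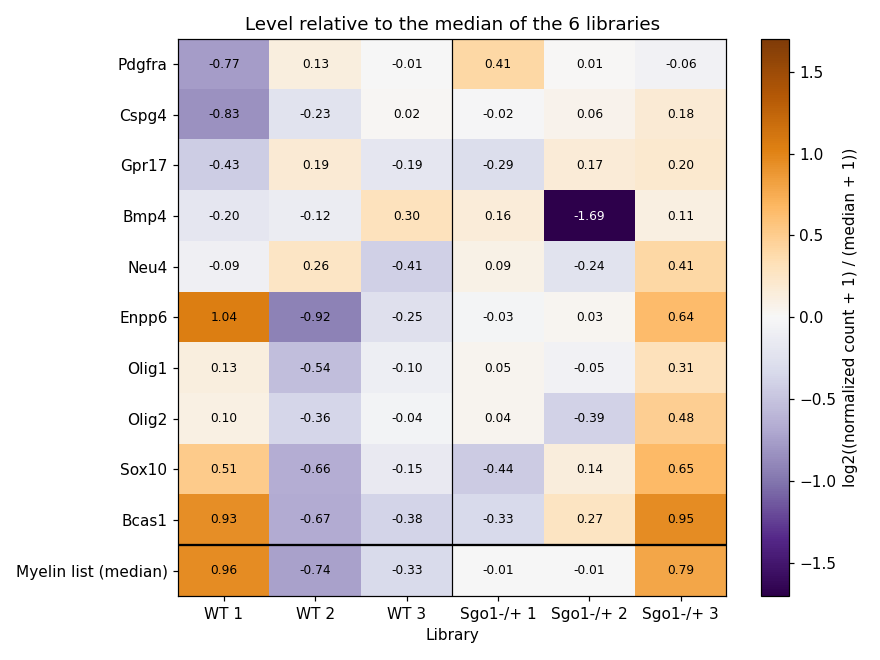
Level of each of the 10 genes in each library as log2 of the normalized count plus 1 over the median of the 6 libraries plus 1, with the median of 14 myelin genes in the bottom row. Bcas1, Sox10 and Enpp6 are above 0.5 in WT replicate 1 and Sgo1-/+ replicate 3, as is the myelin row, while Pdgfra and Cspg4 are near −0.8 in WT replicate 1.

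On the log2 scale relative to the median library, WT replicate 1 was at −0.77 for Pdgfra, −0.83 for Cspg4 and −0.43 for Gpr17, but at 0.51 for Sox10, 0.93 for Bcas1 and 1.04 for Enpp6. Sgo1-/+ replicate 3 was at −0.06 for Pdgfra and 0.18 for Cspg4, and at 0.65, 0.95 and 0.64 for Sox10, Bcas1 and Enpp6. WT replicate 2 had 0.13 for Pdgfra against −0.66, −0.67 and −0.92 for the latter genes. Genes of mature oligodendrocytes were high and low in the same libraries as these 3: the median of 14 myelin genes was at 0.96 in WT replicate 1, 0.79 in Sgo1-/+ replicate 3 and −0.74 in WT replicate 2, and between −0.33 and −0.01 in the other 3. Their summed normalized count was 59420 to 153159 in WT and 83523 to 145954 in Sgo1-/+, with no gene at 0.

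Ratios within a library do not depend on the scaling between libraries. On the per-length scale, the ratio of Bcas1 to Pdgfra was 28.2, 4.97 and 6.67 in the WT mice, against 5.18, 10.4 and 17.4 in the Sgo1-/+ mice, a span of 5.67-fold. The mean of its log2 was 3.29 in each genotype. Enpp6 to Pdgfra had the widest span, 7.41-fold, from 0.0855 in WT replicate 2 to 0.634 in WT replicate 1. The genes of committed precursors were not alike in this: Gpr17 to Pdgfra ran only from 0.621 in Sgo1-/+ replicate 1 to 1.27 in WT replicate 1, and the ratio of Gpr17 to Enpp6 from 2.01 in WT replicate 1 to 12.2 in WT replicate 2. Of the 7 ratios to Pdgfra, that of Cspg4 varied least, between 0.198 and 0.312.

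**Figure D4:**
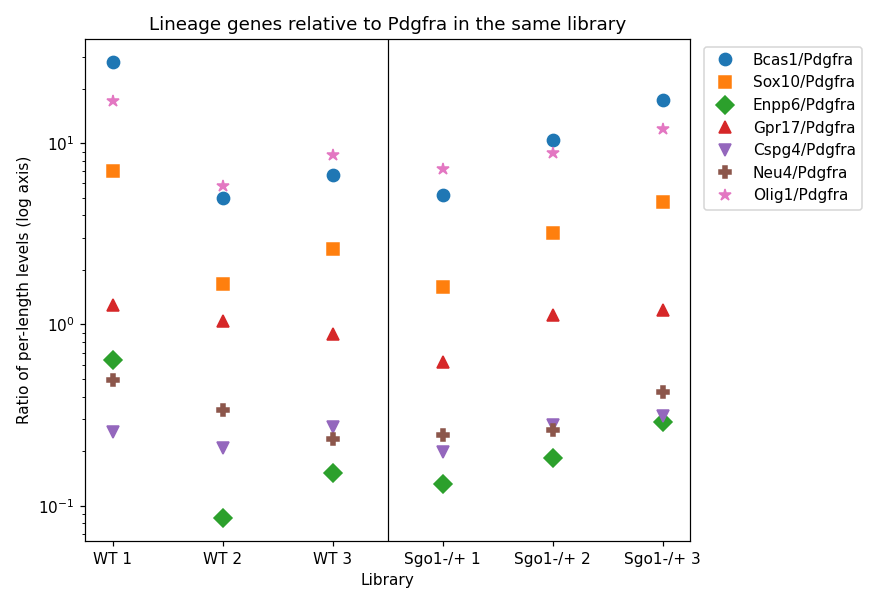
Ratio of the per-length level of 7 genes to that of Pdgfra in the same library, on a log axis, with WT on the left of the line and Sgo1-/+ on the right. The ratio is highest in WT replicate 1 for every gene but Cspg4, whose ratio stays between 0.198 and 0.312.

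Without WT replicate 1, the library with brain stem and cerebellar markers, 3 of the 10 genes had an unadjusted p under 0.05 in edgeR's quasi-likelihood test, all of them higher in Sgo1-/+, beside 1.86% of all genes in that direction, 1.91% in the other and 3.77% in both. They were Bcas1 with a log2 fold change of 0.91 (SE 0.335, unadjusted p = 0.0284), Olig1 with 0.42 (SE 0.164, unadjusted p = 0.0368) and Enpp6 with 0.81 (SE 0.328, unadjusted p = 0.0408), each with an adjusted p = 0.9995 in the same edgeR test. For these 3 genes the 2 remaining WT libraries lay below all Sgo1-/+ libraries, which held for 8.84% of all genes (18.0% in either direction). Sox10 was at 0.57 (SE 0.306), Olig2 at 0.28 (SE 0.254) and Bmp4 at −0.37 (SE 0.545), and Pdgfra, Cspg4, Gpr17 and Neu4 lay between 0.03 and 0.18. A comparison of the 4 females only was added after the data were seen. It keeps the same 2 WT libraries and also leaves out Sgo1-/+ replicate 2, so it is not a separate test. In the females the same 3 genes had an unadjusted p under 0.05, beside 3.51% of all genes (2.08% higher, 1.43% lower, and 0.00607% past the adjusted threshold). Groups did not overlap for these 3 and Olig2 there, beside 30.7% of all genes (14.9% with Sgo1-/+ higher). In the fit without WT replicate 1, 11 of 14 myelin genes were higher with an unadjusted p under 0.05 and their median log2 fold change was 0.76. With all libraries the median was 0.20, and 1 of 14 was higher under that threshold, beside 0.808% of all genes. It was Mal, at 0.47 (SE 0.191, unadjusted p = 0.0433, adjusted p = 0.9999 in edgeR's quasi-likelihood test). The estimate leaned on single libraries on the other side too: without Sgo1-/+ replicate 3 but with all WT libraries, Bcas1 was at −0.14, Enpp6 at −0.19 and Olig1 at 0.15. In Sgo1-/+ replicate 3, 6 of 10 markers of the choroid plexus and 6 of 10 of the thalamus were also the highest of the 6 libraries, and the summed normalized count of the thalamus list was 8659 there and 3909 and 4364 in the other Sgo1-/+ libraries, against 4347 to 8835 in WT. The part of such regional differences in the levels of Bcas1, Olig1 and Enpp6 was not tested.

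**Figure D5:**
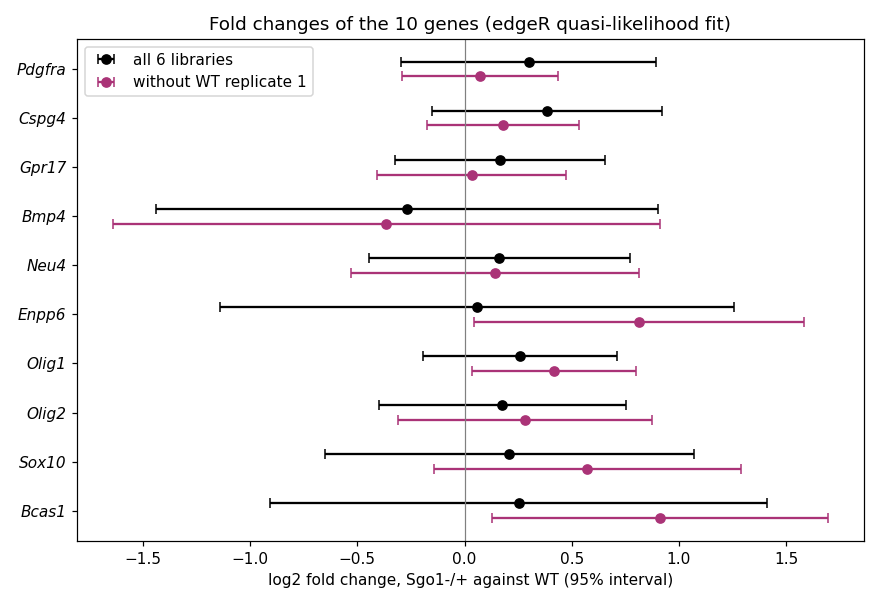
Log2 fold change of Sgo1-/+ against WT for the 10 genes with its 95% interval from the edgeR fit, over all 6 libraries (black) and without WT replicate 1 (purple). With all libraries every interval includes 0; without WT replicate 1 those of Enpp6, Olig1 and Bcas1 lie above 0.

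Other genes of the lineage were read from lists. Of 14 further precursor markers, 0 had an unadjusted p under 0.05, and their median log2 fold change was 0.11, but −0.036 without WT replicate 1, where 7 of 14 were higher and 1, Pcdh15 (−0.37), was lower with an unadjusted p under 0.05. Megf11 (−0.80, SE 0.491) and Ednrb (−0.42, SE 0.387) had the lowest values and Cacng4 (0.28, SE 0.237) and Matn4 (0.24, SE 0.290) the highest. Megf11 had 1130 normalized counts in WT replicate 1 and 280.3 to 401 elsewhere, and was at 0.02 without it, while Ednrb was at −0.10, Cacng4 at 0.19 and Matn4 at 0.01. WT replicate 1 was lowest for 7 of these 14 genes and highest for 4, so the low level of Pdgfra and Cspg4 there was not shared by the whole list.

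Among 13 further genes of committed and newly formed cells that passed the filter (Epcam was removed), 1 had an unadjusted p under 0.05: Kank1, which encodes a regulator of the actin cytoskeleton. It had 344, 336 and 299.9 normalized counts in WT and 246, 235 and 263 in Sgo1-/+, so that all Sgo1-/+ libraries were below all WT libraries, beside 6.85% of all genes whose groups did not overlap and 2.04% with an unadjusted p under 0.05. Its log2 fold change was −0.40 (SE 0.121, unadjusted p = 0.0137, adjusted p = 0.9999 in edgeR's quasi-likelihood test). The lowest value in this list was that of Cnksr3 (−0.73, SE 0.770) and the highest those of Tcf7l2 (0.36, SE 0.743) and Cd9 (0.13, SE 0.254). Without WT replicate 1 Cnksr3 reversed to 0.66 (SE 0.431), Cd9 was at 0.33 and Tcf7l2 at 1.45 (SE 0.575, unadjusted p = 0.0380, adjusted p = 0.9995 in that edgeR test). Lower with an unadjusted p under 0.05 in that fit were Kank1 (−0.36) and Sox4 (−0.62), and the median of the 13 genes turned from −0.13 to 0.03. Tcf7l2, a factor of new oligodendrocytes that thalamic neurons express too, had 347, 94.2 and 63.9 normalized counts in WT and 104, 144 and 402 in Sgo1-/+, high in WT replicate 1 and Sgo1-/+ replicate 3 as Bcas1 and Sox10 were. Of 16 further transcription factors of the lineage, 0 had an unadjusted p under 0.05. Myrf, the factor that turns on myelin genes, was at 0.34 (SE 0.326) and St18 at −0.68 (SE 0.758). Without WT replicate 1 St18 reversed to 0.74 (SE 0.373), and Myrf was at 0.72 (SE 0.243, unadjusted p = 0.0204, adjusted p = 0.9995 in that edgeR test).

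The ligands of the precursor receptor and the pathway of Bmp4 were read from lists as well. Of the PDGF ligands and Pdgfrb, 0 of 5 had an unadjusted p under 0.05. Pdgfa, whose product is the main ligand of PDGFRA, had 410, 352 and 389 normalized counts in the WT mice, against 361, 387 and 451 in the Sgo1-/+ mice, with a log2 fold change of 0.06 (SE 0.131). Its groups overlapped, and WT replicate 1, low in the receptor, was not low in this ligand. Of the 5 genes, however, 3 were lowest in WT replicate 1 and 1 was highest there. The median log2 ratio of the 5 to the median library was −0.51 in WT replicate 1. Pdgfd was at −1.17 (SE 0.611) with all libraries and −0.52 without WT replicate 1, and Pdgfb at 0.35 (SE 0.260) and 0.10. Of 23 other genes of the BMP pathway (ligands, receptors, secreted inhibitors, SMAD proteins and ID targets), 9 were higher and 14 lower in Sgo1-/+ and 0 had an unadjusted p under 0.05. Among them Bmp5 (−0.96, SE 0.582) and the inhibitory SMAD gene Smad6 (−0.67, SE 0.300) were lowest and the BMP inhibitor Nog (0.41, SE 0.333) and Bmp2 (0.30, SE 0.280) highest. Without WT replicate 1 they were at −0.41, −0.64, 0.19 and 0.09. Id2 and Id4, targets of BMP signalling that hold precursors back from differentiation, were at −0.12 (SE 0.150) and 0.20 (SE 0.193).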

How the data were processed

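RNA from the brains of 3 WT and 3 Sgo1-/+ mice was sequenced by the authors on an Illumina MiSeq (TruSeq V2 libraries, 1 per mouse). Read pairs were placed on mm10 by the authors in Strand NGS 2.1, and the deposited table gives estimated counts per Ensembl gene, not normalized. The deposited table also holds their log2 normalized values (DESeq, minus each gene's median) and their comparison as a log2 difference, a signed fold change score and a fold ratio without direction, none of which was used. The labels also name BWA and edgeR. The annotation release and use of strand are not given in the sources used here.

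Columns were tied to samples by the number in their names and the direction of the deposited comparison. Estimated counts were rounded and compared with edgeR 4.0.16 (quasi-likelihood test, TMM, filterByExpr defaults, which kept 16337 genes, genotype as the only term, R 4.3.3); p-values were adjusted by Benjamini-Hochberg and called under 0.05. The SE is the log2 fold change over the square root of F, and 95% intervals use the t quantile of the fit. Normalized counts are estimated counts over the TMM-scaled library size times its mean. For each of the 10 genes an exact permutation test, two-sided, used all 20 groupings. Merged exon lengths came from GENCODE M21, which holds 36308 of the 38087 gene IDs; matched by symbol or gene ID were all listed genes but Lhfpl3. List levels per library are medians of log2 ratios to the median library with a pseudocount of 1. The 95% intervals and the p-values both rest on the spread between single mice. The limit of 3 counts for a listed 0 covers sampling error only, and reads carry no molecular identifiers. Promoters came from the RefSeq set of GRCm38.p6.

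Alternatives were DESeq2 1.42.0, edgeR's likelihood ratio test, limma 3.58.1 on log2(DESeq-normalized count + 1), other scalings and filters, sex as a covariate, a replicate block and each library left out. Females only was added after the data were seen. The tests were first run on simulated data. The 10 genes and the lists were chosen with earlier results of these data known. Text names the 10 genes and, of each lineage, PDGF and BMP list, up to 2 lowest and 2 highest fold changes. It also names all genes of these lists with an unadjusted p under 0.05 with all libraries. Of the myelin list only Mal is named. Igf2 was named after its values were seen. Pdgfa and Id4 were added for their roles after their values were seen. Pcdh15 and Sox4 were named after their values without WT replicate 1 were seen.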

Additional observations from a re-analysis of the deposited data

How the results depend on the processing

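Of 159 log2 fold changes of the 10 genes over 16 alternatives, 146 kept their direction and 13 reversed, and none had an adjusted p under 0.05. Scaling by library size only turned Enpp6 to −0.029. Females only, added after the data were seen, turned Gpr17 to −0.029 and Bmp4 to 0.035, moved the median of the 10 genes from 0.19 to 0.38, and gave 3 genes with an unadjusted p under 0.05 (Enpp6, Olig1 and Bcas1) and 4 with groups that did not overlap (Olig2 too). Leaving out single libraries reversed Enpp6 (range −0.29 to 0.81), Sox10 (−0.10 to 0.57), Bcas1 (−0.14 to 0.91), Bmp4 (−0.54 to 0.12), Neu4 (−0.015 to 0.35) and Olig2 (−0.073 to 0.36). Over these fits the median of the 10 genes was between −0.044 and 0.30, the number with an unadjusted p under 0.05 between 0 and 3, and the number whose groups did not overlap between 0 and 3. The 3 were Enpp6, Olig1 and Bcas1, without WT replicate 1. The cause was not tested.

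Of all genes, DESeq2 called 3 and edgeR's likelihood ratio test 2 at an adjusted p under 0.05, females only 1, and the fits without 1 library between 0 and 1. Genes with an unadjusted p under 0.05 numbered 333 of 16337 (2.04%) in edgeR's test, and 563 of 26061 with no filter on low counts. They numbered 626 of 16617 (3.77%) without WT replicate 1 and 1040 of 16741 (6.21%) without WT replicate 3. In females only they numbered 578 of 16487 (3.51%). The filter of 10 counts in every library removed Bmp4. With the replicate block the median of the 10 genes was 0.25, with 0 under an unadjusted p of 0.05 and 0 genes of all past the threshold. Same-numbered libraries did not deviate together (correlations of −0.145, 0.00975 and −0.210). The highest correlation with another number was 0.294, 0.231 and 0.223. No pairing by number was seen, but with 3 mice per genotype these values cannot exclude one. Depth limits Bmp4 most.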

Other observations

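Among marker lists of other cell types, 10 of 10 microglia genes were higher in Sgo1-/+ (median log2 fold change 0.29). Of them 1 had an unadjusted p under 0.05 in edgeR's test, beside 0.808% of all genes in that direction. WT replicate 1 was lowest for 6 of the 10, and 8 of 10 were higher without Sgo1-/+ replicate 3. Of the meningeal fibroblast genes 11 of 11 were lower (median −0.62), 1 of them under that threshold, beside 1.23% of all genes in that direction. Without WT replicate 1 these medians were 0.18 and −0.65. The 11 meningeal genes were all lowest in Sgo1-/+ replicate 2, and the median in females only was −0.37. Summed counts of the other Sgo1-/+ mice (2238 and 2272) lay within the WT range, but Igf2 alone held 1501 in Sgo1-/+ replicate 3. Relative to the median library, the log2 level of the list was −1.28 in Sgo1-/+ replicate 2, −0.59 in replicate 3 and −0.009 in replicate 1. In WT it was between −0.002 and 0.34. Of the astrocyte genes 2 of 10 were higher (median −0.18) and of the endothelial genes 7 of 10 (median 0.11), with 0 under that threshold in each. Without WT replicate 1 the astrocyte list turned, with 8 of 10 higher and a median of 0.068, and the endothelial median was 0.089. Markers of the olfactory bulb, another region that had been dissected away, were lower in Sgo1-/+ for 10 of 10 genes (median −1.80). Of them 2 had an unadjusted p under 0.05 in edgeR's test. Without WT replicate 1 their median was −2.05, with 7 lower and 1 higher under that threshold, beside 1.91% and 1.86% of all genes. Their summed normalized count ranged from 782 to 2470.1 among the WT mice, against 179 to 1201 among the Sgo1-/+ mice.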
